A study of Mus musculus with 10 samples.

Results

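The nuclear genes for subunits of respiratory complexes II, III, IV and V, together with cytochrome c, were followed in livers of mice with and without a knockout of Etnppl. Members were taken by symbol from the deposited expression table: the Sdha to Sdhd genes, all Uqcr genes with Cyc1, the Cox4 to Cox8 genes, all Atp5 genes, and Cycs. This gave 49 of the 47702 genes in the table, of which 4 belong to complex II, 9 to complex III, 1 is cytochrome c, 18 belong to complex IV and 17 to complex V. A further 4 symbols marked as pseudogenes were left out, and all of them were listed at 0 in every library.

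Etnppl encodes ethanolamine phosphate phospho-lyase, a liver enzyme that breaks down phosphoethanolamine. The study compared female mice carrying a whole-body Etnppl knockout (KO) with wild type (WT) females, all kept on a 20 week Chow diet, and sequenced poly-A RNA from snap-frozen liver in 5 samples per genotype. The sources used here do not give strain, the deleted exons or littermate status. Since no label ties each sample to its own animal, the p-values cover variation among these samples only, which may be technical.

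The respiratory chain of the inner mitochondrial membrane carries electrons from fuels to oxygen. Complex II, succinate dehydrogenase, passes electrons from succinate to coenzyme Q. Complex III passes them from coenzyme Q to cytochrome c, and complex IV, cytochrome c oxidase, from cytochrome c to oxygen. Complexes III and IV pump protons, and complex V, ATP synthase, lets the protons flow back through a rotating ring to make ATP. Complex II is built from nuclear genes alone, whereas complexes III, IV and V also hold subunits encoded by mitochondrial DNA. In liver, this machinery supplies the ATP for urea synthesis, gluconeogenesis and secretion.

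Etnppl itself was lower in every library labelled KO, at 17.7 to 26.4 FPKM against 43.3 to 108 FPKM in WT, with a log2 difference of -1.49 (SE 0.23, limma with Benjamini-Hochberg adjustment, p = 0.00504, exact permutation p = 0.00794, the smallest that 5 against 5 libraries allow). FPKM, as the authors computed it, is the number of fragments scaled by transcript length and by the size of the library. Transcript remained in every KO library. The relative sequencing depth, read from the step between low FPKM values, ran from 0.897 (KO 1) to 1.11 (WT 3) and averaged 1.05 ± 0.0443 in WT and 0.954 ± 0.0753 in KO (SD, n = 5 each, exact permutation p = 0.0556, two-sided). The part of depth in the results was not tested.

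Markers checked the tissue. The hepatocyte list held 7 genes, all tested, and its summed level was 57763 to 62765 FPKM in WT and 62962 to 68488 FPKM in KO, with 1 gene higher and 0 lower by limma (2 lower at an unadjusted p under 0.05). The 8 Kupffer cell markers summed to 228 to 267 FPKM in WT and 155 to 226 FPKM in KO, with 3 of 8 lower (1 higher and 5 lower at an unadjusted p under 0.05). Sinusoidal endothelial markers summed to 107 to 113 FPKM in WT and 98.7 to 116 FPKM in KO, stellate markers to 218 to 306 and 213 to 246 FPKM, cholangiocyte markers to 14.8 to 20.0 and 13.1 to 18.2 FPKM. Lymphocyte markers summed to 23.6 to 49.0 FPKM in WT and 16.8 to 28.7 FPKM in KO, neutrophil markers to 3.87 to 9.19 and 3.04 to 7.74 FPKM, and erythroid markers to 365 to 668 and 327 to 549.7 FPKM. Called among these were 1 stellate marker and 1 cholangiocyte marker, both lower, and 1 erythroid marker, which was higher. Over all 12247 genes tested, 3.98 percent were higher and 4.56 percent lower by limma. At an unadjusted p under 0.05, 1342 of them were higher and 1664 lower. The hepatocyte sum was thus higher and the Kupffer cell sum lower in KO, both without overlap. Their part in the results that follow was not tested. In bulk tissue, fewer cells of a type and less RNA per cell cannot be told apart.

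Of the 49 members, 44 had a mean of at least 0.5 FPKM over the 10 libraries and were tested. In KO liver, 15 of the 44 were higher (34.1%) and 0 were lower, by limma on log2(FPKM + 0.5) at an adjusted p under 0.05 over all 12247 genes tested. Over all genes tested, 3.98 percent were higher, 4.56 percent were lower and 8.54 percent were called in either direction. At an unadjusted p under 0.05, 26 of the 44 members were higher and 0 lower. Over all 12247 genes tested, 1342 were higher and 1664 lower at that looser threshold. All unadjusted counts given here are to be read beside these. The members called were Sdhd of complex II, Cyc1, Uqcrfs1, Uqcrc1 and Uqcrb of complex III, Cycs, Cox5b, Cox7a2, Cox7b and Cox7c of complex IV, and Atp5b, Atp5c1, Atp5g1, Atp5g3 and Atp5f1 of complex V. Rises were small, from 11.8% in Atp5c1 to 32.0% in Cycs. Every KO library lay above every WT library in 12 of the 44 tested members, against 4.08 percent of all genes tested. All 12 were among the 15 called, and call and arrangement rest on the same libraries. No member had every KO library below every WT library, against 4.78 percent of all genes.

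The members are abundant transcripts, and abundant genes were called more often. Among the 1360 genes that averaged 50 FPKM or more, 8.38 percent were higher and 9.71 percent lower. The 38 subunits at or above that level, with Cox7a2l left out as a supercomplex factor, included 14 that were higher (36.8%). The median log2 difference over the 44 tested members was 0.16, against -0.02 over all genes tested and -0.02 over the abundant genes. Positive differences were found in 40 members and negative ones in 4, namely Uqcr11, Cox6b2, Atp5j2 and Atp5s, none of which was called, and Atp5s turned positive under the 3 other scalings tried. The count depends on single libraries: it was 8 without WT 4 or without WT 5, 9 without WT 1, KO 3, KO 4 or KO 5, and 17 without WT 2.

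**Figure D1:**
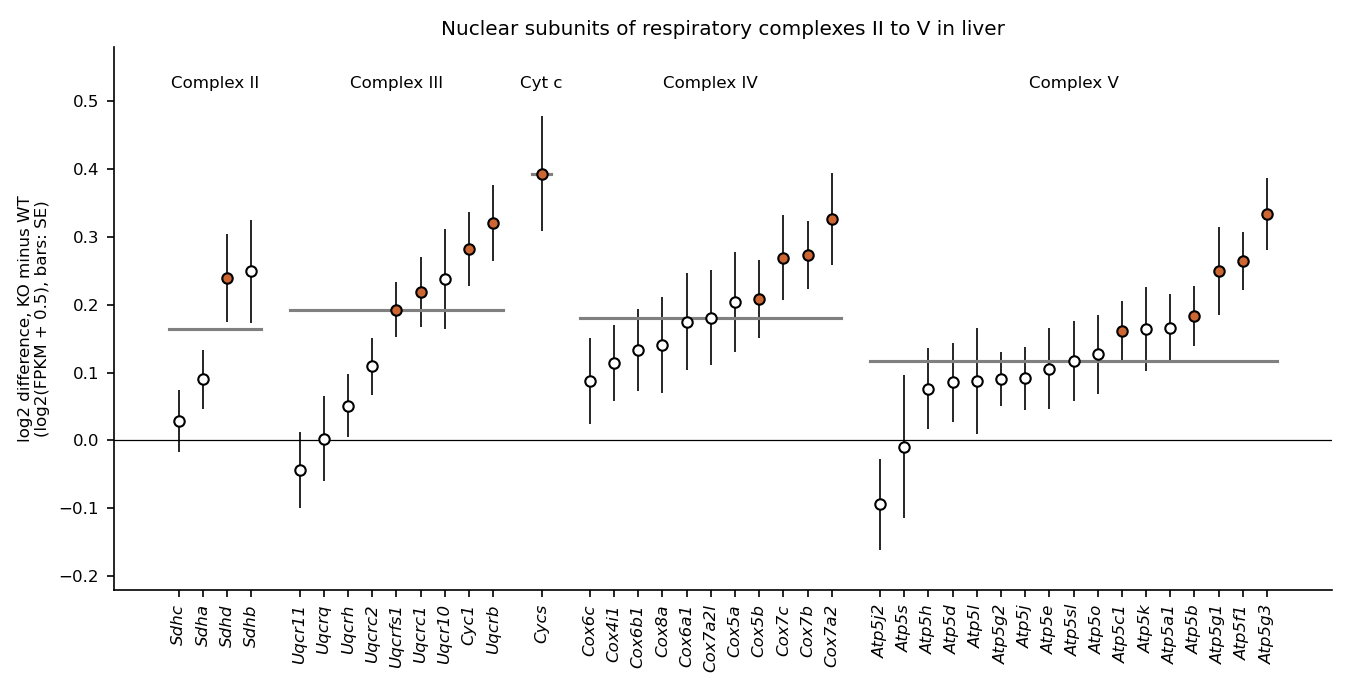
Log2 difference (KO minus WT, on log2(FPKM + 0.5)) of each tested member, by complex, with its standard error as a bar; filled points were higher in KO at an adjusted p under 0.05 and grey lines are the medians of the tested members. Most points lie above 0, the medians are 0.16, 0.19, 0.39, 0.18 and 0.12 from left to right, and Cox6b2 and Cox7a1, with means under 2 FPKM, are not drawn.

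Promoter sequences were examined for motifs of factors known to bind respiratory gene promoters: NRF1 (its near-palindromic consensus, with 1 free base), GABPA (CCGGAAG), ERR (TCAAGGTCA) and YY1 (AAGATGGCG), each on both strands. RefSeq promoter windows (GRCm38.p6, 250 bases before to 50 after the start) were matched for 38 of the 49 members. Of the 13 called members with a matched window, 4 held a motif in it: Atp5g3, Uqcrc1, Sdhd and Atp5c1. The start is that of RefSeq and can differ from the gene ends given with the values, which are from GENCODE. Shown are the bases before the start, up to 100, ending where an annotated exon or an opposite gene begins, for the 2 members whose bases held a match. They are printed 5′ to 3′ on the strand of the gene, with matches in capitals. Atp5g3 (chr2:73911327-73911426, minus strand) holds the ERR motif, read on the opposite strand, 52 bases before the start, and an NRF1 match after it. Sdhd (chr9:50603850-50603900, minus strand) holds a GABPA match, also read on the opposite strand, 46 bases before the start, in the 51 bases that separate it from Timm8b. A further NRF1 match of Sdhd, 79 bases before its start, lies in the first exon of Timm8b, and an ERR match lies after its start. Those of Uqcrc1 lie after the start, and the NRF1 match of Atp5c1, 17 bases before the RefSeq start, lies inside the gene as GENCODE gives it, so neither is shown.

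Atp5g3: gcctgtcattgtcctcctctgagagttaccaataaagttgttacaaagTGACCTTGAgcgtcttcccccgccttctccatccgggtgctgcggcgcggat
Sdhd: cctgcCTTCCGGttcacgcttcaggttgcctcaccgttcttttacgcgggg

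Matches were counted over the members and over all promoter windows of the same length. NRF1 matches were present in 10 of the 33 matched members with a mean of at least 20 FPKM (30.3%), against 5.19% of all promoters in the table and 11.7% of those of tested genes. GABPA matches were present in 12 of the 33 (36.4%), against 9.93% of all promoters and 20.4% of those of tested genes. ERR matches were found in 2 of the 33 (6.06%), against 0.466% of all promoters and 0.330% of those of tested genes. YY1 matches were found in 3 (9.09%), against 1.64% and 3.75%. Among the 13 called members, 4 held NRF1, 1 held GABPA, 2 held ERR and 0 held YY1. Among the 20 that were not called, the counts were 6, 11, 0 and 3. These counts are descriptions without a test, and a match is not evidence of binding.

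The complexes were compared by the share of tested members that were higher. In the reported fit, complex III had the highest share, with 4 of 9 (44.4%). Complex IV followed with 4 of 13 (30.8%), complex V with 5 of 17 (29.4%) and complex II with 1 of 4 (25.0%). Each is to be read beside the 3.98 percent of all genes. The order was not tested, and with a replicate term in the model complex III had 2 of 9 and complex IV 3 of 13. Limma called 0 members lower in any complex, also at an unadjusted p under 0.05. The median log2 differences of complexes II to V were 0.16, 0.19, 0.18 and 0.12. Restricted to members of at least 50 FPKM and without Cox7a2l, complex IV had 4 of 10 higher (40.0%) with a median of 0.19. Without Atp5s and Atp5sl, which are named after ATP synthase but are not core subunits, complex V had 5 of 15 higher (33.3%) with a median of 0.13.

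The level of each complex in a library was taken as the mean log2 level of its subunits with at least 20 FPKM, relative to the WT mean, leaving out Cox7a2l and Atp5sl. Complex II ran from -0.09 to 0.08 in WT and from 0.12 to 0.17 in KO. Complex III ran from -0.05 to 0.09 in WT and from 0.12 to 0.18 in KO. Complex IV ran from -0.06 to 0.10 in WT and from 0.16 to 0.25 in KO. None of these 3 overlapped between genotypes, with KO means of 0.15, 0.15 and 0.19. Complex V ran from -0.05 to 0.08 in WT and from 0.06 to 0.21 in KO, with a KO mean of 0.14, and overlapped because KO 1 lay below WT 2. WT 2 was the highest WT library in all 4 complexes, and KO 1 the lowest KO library. The KO means of the 4 complexes lay within 0.14 to 0.19, closer together than the 5 KO libraries of complex V. The differences between complexes were not tested.

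**Figure D2:**
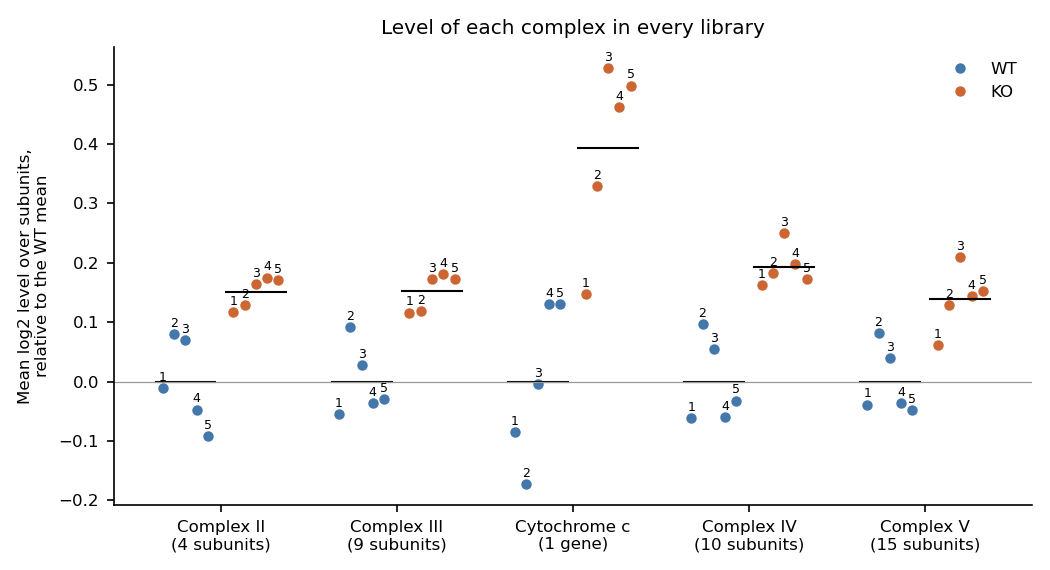
Mean log2 level over the subunits of each complex with at least 20 FPKM (Cox7a2l and Atp5sl left out), relative to the WT mean, in each of the 10 libraries (numbered points) with group means as lines. KO libraries lie above WT libraries in complexes II, III and IV and for cytochrome c, and KO 1 of complex V lies at 0.06, below WT 2 at 0.08.

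Summed over subunits, complex II was at 549.2 ± 25.5 FPKM in WT and 608 ± 12.9 FPKM in KO (SD, n = 5 each), a difference of 10.7%. Complex III was at 1595 ± 70.5 and 1780 ± 44.4 FPKM (11.6%), complex IV at 2557 ± 167 and 2869 ± 88.7 FPKM (12.2%), and complex V at 4146 ± 172 and 4653 ± 150.4 FPKM (12.2%). The sums were weighted towards the most abundant subunits and were close to each other in relative size. Together the 39 genes took 1.24% ± 0.0459 of the summed FPKM of a WT library and 1.36% ± 0.0487 of that of a KO library.

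Complex II has a catalytic head, in which Sdha carries the flavin and Sdhb the iron-sulphur clusters, and a membrane anchor of Sdhc and Sdhd. Sdhd (chr9:50596357-50603812, mm10, minus strand), part of whose promoter is shown above, read 151, 159.6, 144, 132 and 139 FPKM in WT 1 to 5 and 156, 162, 177, 178 and 184 FPKM in KO 1 to 5. The genotypes overlapped, with 4 of 5 KO libraries above all WT libraries. Sdhd rose by 18.1% (log2 difference 0.24, SE 0.07, limma adjusted p = 0.0442, exact permutation p = 0.0159). This call was lost without any of 8 libraries, that is all but WT 2 and KO 1, with an adjusted p of up to 0.105. Sdhc, its partner in the anchor, was at 134 ± 5.28 FPKM in WT and 136 ± 4.50 FPKM in KO, with no call (log2 difference 0.03, adjusted p = 0.751).

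Sdhb read 101, 124, 118, 97.8 and 92.9 FPKM in WT and 126, 129.6, 126, 127 and 124 FPKM in KO. The WT libraries were spread widely and the KO libraries were nearly level, and the adjusted p was 0.0651 for a log2 difference of 0.25. Sdha was at 164 ± 5.50 FPKM in WT and 174 ± 5.83 FPKM in KO (adjusted p = 0.233). The only called member of complex II was thus a membrane anchor subunit.

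In complex III, the 2 nuclear redox subunits were both higher. Cyc1 (chr15:76343523-76346260, plus strand), cytochrome c1, which hands electrons to cytochrome c, read 139, 163, 142, 141 and 142 FPKM in WT and 169, 172, 179.8, 176 and 187 FPKM in KO. All KO libraries lay above all WT libraries, although WT 2 stood well above the other WT libraries. Cyc1 rose by 21.5% (log2 difference 0.28, SE 0.05, limma adjusted p = 0.0111). Uqcrfs1 (chr13:30540308-30545362, minus strand), the Rieske iron-sulphur protein, read 131, 135, 123, 129.7 and 129 FPKM in WT and 147, 146, 151, 149 and 148 FPKM in KO. The groups did not overlap, and the KO libraries had an SD of only 1.72 FPKM. Uqcrfs1 rose by 14.3% (log2 difference 0.19, SE 0.04, limma adjusted p = 0.0158).

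The core subunits Uqcrc1 and Uqcrc2 resemble mitochondrial processing peptidases and form the matrix side of complex III. Uqcrc1 (chr9:108936633-108949623, plus strand) read 163, 188, 168, 162 and 164 FPKM in WT and 207, 192, 197, 192 and 195 FPKM in KO. KO lay above WT throughout, with WT 2 closest. It rose by 16.3% (log2 difference 0.22, SE 0.05, limma adjusted p = 0.0254), a call lost without WT 1, WT 4, WT 5, KO 1 or KO 5 (adjusted p of up to 0.0589). Uqcrc2 was at 117 ± 4.26 FPKM in WT and 126 ± 2.86 FPKM in KO, which did not pass (adjusted p = 0.139).

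The 5 small subunits of complex III differed among themselves. Uqcrb (chr13:66900617-66905378, minus strand), known as the ubiquinone-binding protein, read 242, 239.6, 265, 229.8 and 238 FPKM in WT and 296, 295, 337, 289.9 and 299 FPKM in KO. The groups were separate, and KO 3 stood above the other KO libraries. Uqcrb rose by 25.0% (log2 difference 0.32, SE 0.06, limma adjusted p = 0.00705). Its exons overlap those of Gm10767 on the other strand, and the strand setting of the counting is not known from the labels. Uqcr10 read 189.7 to 233 FPKM in WT and 220.5 to 267 FPKM in KO and missed the threshold (log2 difference 0.24, adjusted p = 0.0679). Uqcrh (0.05, adjusted p = 0.538), Uqcrq (0.00, adjusted p = 0.985) and Uqcr11 (-0.04, adjusted p = 0.686) had log2 differences near 0, so the small subunits spanned -0.04 to 0.32.

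Cytochrome c, the soluble carrier between complexes III and IV, had the largest relative rise of the called members. Cycs (chr6:50562563-50566538, minus strand) read 31.0, 29.1, 32.8, 36.1 and 36.1 FPKM in WT and 36.5, 41.5, 47.7, 45.5 and 46.7 FPKM in KO. The groups did not overlap, but KO 1 was close to WT 4 and WT 5. It rose by 32.0% (log2 difference 0.39, SE 0.09, limma adjusted p = 0.0183). The testis form, Cyct, was listed at 0 in all 10 libraries. Cycs was the least abundant of the members with at least 20 FPKM other than Atp5sl.

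Complex IV is built around a mitochondrially encoded core, and its nuclear subunits surround it and tune its activity. Of the subunit 5 pair, Cox5b (chr1:36691449-36693681, plus strand), a zinc-binding matrix subunit, read 129.6, 157, 134, 147 and 138 FPKM in WT and 162, 164, 167, 153 and 167 FPKM in KO. The groups overlapped, since KO 4 lay below WT 2. Cox5b rose by 15.4% (log2 difference 0.21, SE 0.06, limma adjusted p = 0.0455, exact permutation p = 0.0159). The call held only without WT 2 among the 10 single omissions, and the adjusted p otherwise reached up to 0.102. Cox5a read 115 to 137 FPKM in WT and 124 to 157 FPKM in KO (log2 difference 0.20, adjusted p = 0.112).

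The subunit 7 group, single-helix proteins on the outside of the complex, held 3 of the 4 calls of complex IV. Cox7a2 (chr9:79755361-79759878, minus strand), the liver form of subunit 7a, read 58.5, 60.7, 65.6, 74.5 and 67.9 FPKM in WT and 85.4, 77.7, 77.4, 85.6 and 83.8 FPKM in KO. Every KO library was above every WT library, with WT 4 nearest. Cox7a2 rose by 25.3% (log2 difference 0.33, SE 0.07, limma adjusted p = 0.0151). Cox7b (chrX:106015700-106022450, plus strand) read 87.8, 93.3, 91.2, 83.3 and 91.0 FPKM in WT and 106, 114, 112, 106 and 102 FPKM in KO. Its groups were also separate, and it rose by 21.0% (log2 difference 0.27, SE 0.05, limma adjusted p = 0.0077). Cox7c (chr13:86044816-86046904, minus strand) read 324, 331, 348, 294 and 288 FPKM in WT and 391, 378, 406, 381 and 352 FPKM in KO. WT 3 and KO 5 came close to each other without overlap. Cox7c rose by 20.4% (log2 difference 0.27, SE 0.06, limma adjusted p = 0.0242), a call lost without WT 4, WT 5 or any of KO 1 to KO 4 (adjusted p of up to 0.0554).

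The other abundant subunits of complex IV did not pass the test. Cox4i1 was at 309 ± 23.1 FPKM in WT and 334 ± 10.2 FPKM in KO (adjusted p = 0.237). The subunit 6 genes Cox6a1, Cox6b1 and Cox6c had log2 differences of 0.18, 0.13 and 0.09 with adjusted p-values of 0.156, 0.202 and 0.433. Cox8a was at 418 ± 41.9 FPKM in WT and 459.7 ± 25.9 FPKM in KO (log2 difference 0.14, adjusted p = 0.249). Cox7a2l, a factor that joins complexes III and IV into supercomplexes, had a log2 difference of 0.18 (adjusted p = 0.139), with WT 3 at 80.8 FPKM above all KO libraries, which read 74.0 to 78.3 FPKM.

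Several complex IV subunits have a second gene used in lung, testis or muscle, and in these livers the liver forms made up nearly all of each set. Cox4i1 made up 99.9% of the Cox4i pair, and Cox6a1 99.99% of the Cox6a pair, in both genotypes. Cox4i2 was listed at 0.090, 0.090, 0.49, 0.19 and 0.090 FPKM in WT and at 0, 0.080, 0.18, 0 and 0 FPKM in KO, Cox6a2 at up to 0.20 FPKM and Cox8b at up to 0.38 FPKM. Cox7b2 and Cox8c were listed at 0 in all 10 libraries. Cox6b2 was at 1.47 to 2.34 FPKM in WT and 0.50 to 2.17 FPKM in KO (log2 difference -0.42, adjusted p = 0.272). Cox7a1, the muscle form of subunit 7a, was at 0 to 1.74 FPKM in WT and 0.68 to 1.74 FPKM in KO (log2 difference 0.63, SE 0.38, adjusted p = 0.335), a range of values that overlapped entirely. The 7 muscle markers summed to at most 0.25 FPKM in any library, and Myh6, Myh1 and Myh4 were listed at 0 in all.

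**Figure D3:**
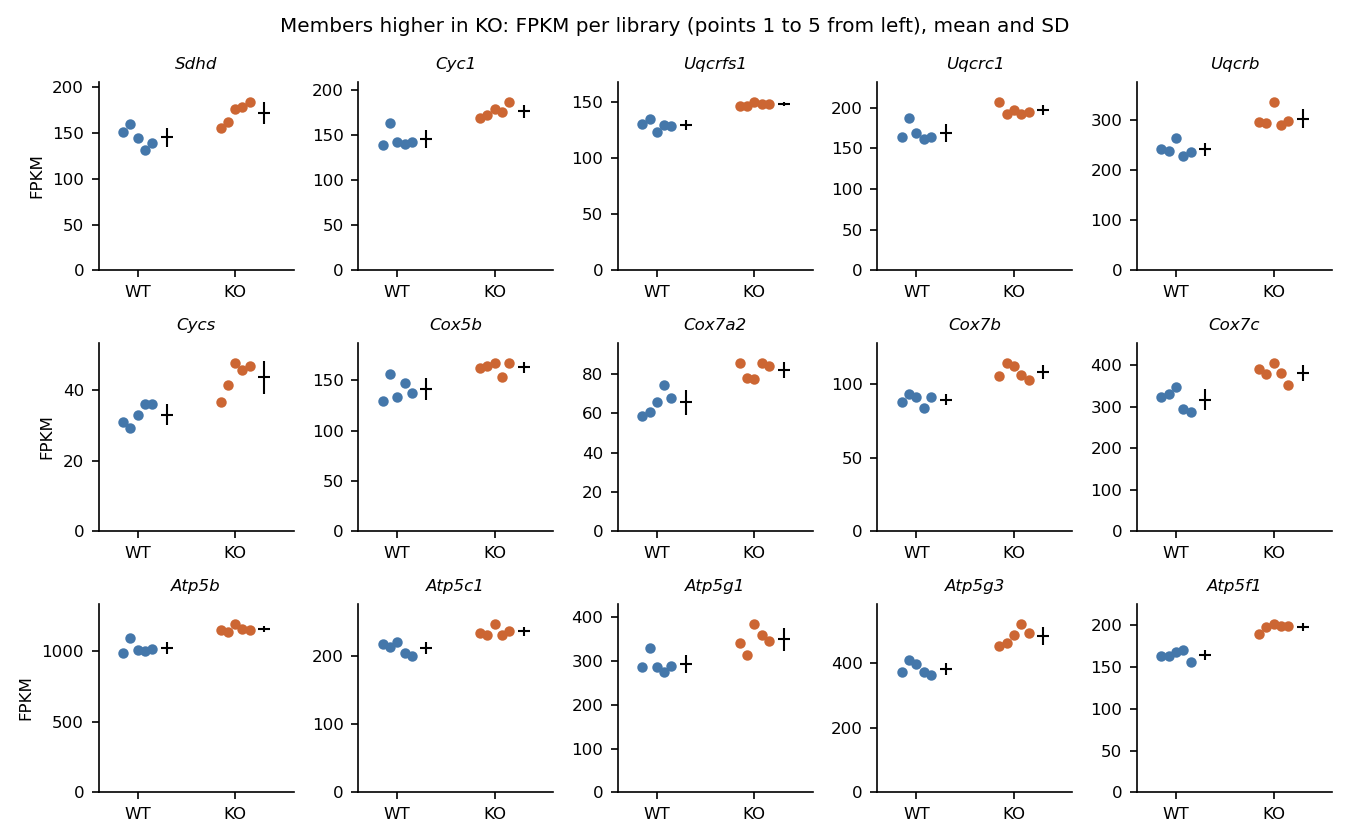
FPKM of the 15 members higher in KO, one panel each with its axis starting at 0, showing libraries 1 to 5 of each genotype as points and the mean with its SD beside them. KO points lie above all WT points in 12 panels and overlap in those of Sdhd, Cox5b and Atp5g1.

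ATP synthase has a catalytic head of alternating alpha and beta subunits, a central stalk that turns inside it, a rotor ring of identical c subunits in the membrane, and a peripheral stalk that holds the head still. Atp5b (chr10:128083273-128090391, plus strand), the beta subunit, was the most abundant member, with 986, 1093, 1012, 999 and 1013 FPKM in WT and 1151, 1137, 1195, 1160 and 1147 FPKM in KO. No libraries overlapped, and WT 2 stood above the other WT libraries. It rose by 13.5% (log2 difference 0.18, SE 0.04, limma adjusted p = 0.0274), a call lost without WT 1, WT 4, WT 5 or any of KO 2 to KO 5 (adjusted p of up to 0.0642). Atp5a1, the alpha subunit, read 384, 433, 399, 412 and 387 FPKM in WT and 427, 440.2, 454, 467 and 472 FPKM in KO. Its groups overlapped at WT 2 and KO 1, and its log2 difference of 0.17 (SE 0.05) did not pass (adjusted p = 0.0602), although it did under 3 of the other settings.

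In the central stalk, Atp5c1 (chr2:10056016-10080510, minus strand), the gamma subunit that turns in the head, read 217, 212, 220.2, 204 and 199 FPKM in WT and 233, 230.4, 247, 231 and 236 FPKM in KO. The groups were separate and the rise was the smallest of the called members, at 11.8% (log2 difference 0.16, SE 0.04, limma adjusted p = 0.0474). Leaving out any library but WT 3 ended this call, with an adjusted p of up to 0.108. Atp5d and Atp5e, the other stalk subunits, had log2 differences of 0.09 and 0.11 with no call (adjusted p = 0.404 and 0.306).

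The peripheral stalk held 1 call in 4 members. Atp5f1 (chr3:105942698-105960099, minus strand), the b subunit that spans the membrane and reaches the head, read 164, 163, 169, 171 and 156 FPKM in WT and 189.9, 198, 202, 199 and 199.9 FPKM in KO. The groups were far apart relative to their spread, and it rose by 20.2% (log2 difference 0.26, SE 0.04, limma adjusted p = 0.00456). Its exons overlap those of Wdr77 on the other strand, which was not called. Atp5h, Atp5j and Atp5o had log2 differences of 0.08, 0.09 and 0.13 (adjusted p = 0.477, 0.256 and 0.203). Among the small membrane subunits, Atp5k (0.16, adjusted p = 0.131), Atp5l (0.09, adjusted p = 0.535) and Atp5j2 (-0.09, adjusted p = 0.423) were not called, and Atp5j2 was at 103 ± 9.91 FPKM in WT and 96.5 ± 4.66 FPKM in KO. The related factors Atp5s (-0.01, adjusted p = 0.968) and Atp5sl (0.12, adjusted p = 0.252) were at far lower levels.

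The c subunit of the rotor ring is encoded by 3 genes, which make the same mature protein from different precursors. Atp5g3 (chr2:73908447-73911326, minus strand), whose promoter with the ERR motif is shown above, read 372, 407, 395, 372 and 363 FPKM in WT and 453, 459, 486, 520.2 and 490.3 FPKM in KO. All KO libraries were above all WT libraries by a wide margin. Atp5g3 rose by 26.2% (log2 difference 0.33, SE 0.05, limma adjusted p = 0.00456). Atp5g1 (chr11:96068852-96075670, minus strand) read 287, 329, 287, 274 and 289 FPKM in WT and 340.4, 314, 385, 359 and 346 FPKM in KO. WT 2 lay above KO 2, and the rise of 19.0% had an adjusted p of 0.0371 (limma, log2 difference 0.25, SE 0.06) that reached up to 0.081 and was over the threshold without any library other than WT 2 or KO 2. Atp5g2 read 112, 113, 119, 114 and 115 FPKM in WT and 121, 121, 126, 123 and 118 FPKM in KO, and its log2 difference of 0.09 was not called (adjusted p = 0.19).

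The summed level of the ring genes was 789.5 ± 36.4 FPKM in WT and 952 ± 48.4 FPKM in KO (SD, n = 5 each). Atp5g3 made up 48.4% of the sum in WT and 50.6% in KO, Atp5g1 37.1% and 36.6%, and Atp5g2 14.5% and 12.8%. The share of Atp5g2 ran from 13.3% to 15.0% in WT and from 12.3% to 13.5% in KO, so the groups overlapped slightly.

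**Figure D4:**
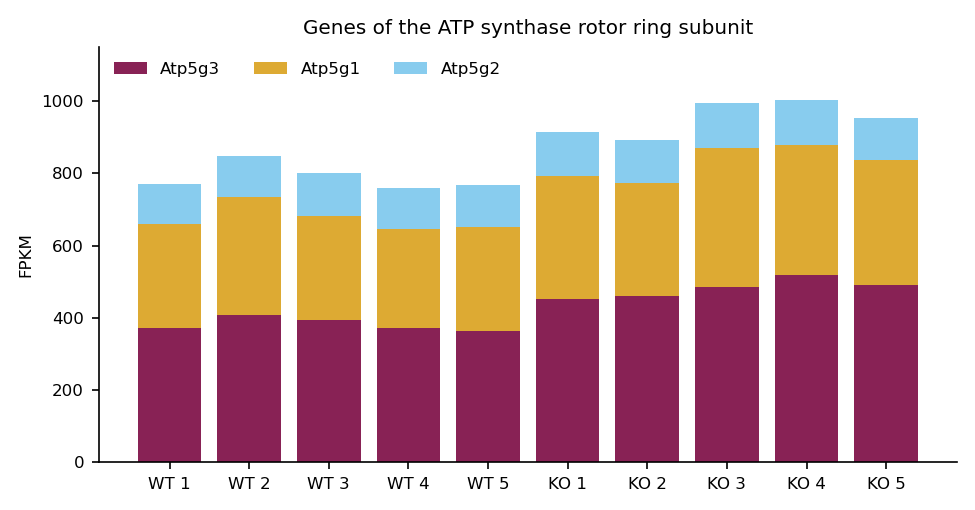
FPKM of the 3 genes for the c subunit of the ATP synthase rotor ring, stacked, in each of the 10 libraries. The sums average 789.5 FPKM in WT and 952 FPKM in KO, and most of the added height lies in Atp5g3 and Atp5g1.

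Further genes of the same machinery were taken from lists. Of 36 nuclear subunits of complex I, which feeds electrons from NADH to coenzyme Q, 7 were higher (19.4%) and 0 lower by limma. Over all genes tested, 3.98 percent were higher and 4.56 percent lower. The complex I subunits had a median log2 difference of 0.13 (15 higher and 2 lower at an unadjusted p under 0.05). The subunits of complexes IV and V that carry other symbols, Ndufa4 (log2 difference 0.14, adjusted p = 0.149), Usmg5 (0.27, adjusted p = 0.0709) and 2010107E04Rik (0.14, adjusted p = 0.127), were not called. Of the 6 mitochondrially encoded subunits of complexes III to V, only mt-Cytb and mt-Co1 had enough signal to be tested. The level of mt-Co1 was 15973 ± 2604 FPKM in WT and 18640 ± 1394 FPKM in KO (log2 difference 0.24, adjusted p = 0.19). For mt-Cytb the log2 difference was 0.02 (adjusted p = 0.903). Under quantile normalization they were 0.03 for mt-Co1 and -0.11 for mt-Cytb. mt-Co2, mt-Atp6 and mt-Atp8 were listed at 0 in every library and mt-Co3 at 0 to 0.27 FPKM, so the nuclear and mitochondrial subunits of complexes IV and V cannot be compared here.

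Assembly factors help to build the complexes without staying in them. Of 40 genes listed as assembly factors of complexes II to V, an inhibitor of complex V included, 4 were higher and 0 lower by limma. The share higher was 10%, against 3.98 percent of all genes. At an unadjusted p under 0.05, 7 were higher and 2 lower, and the median log2 difference was 0.05. Cox11, which inserts copper into complex IV, read 7.03 to 8.41 FPKM in WT and 9.48 to 11.4 FPKM in KO (log2 difference 0.40, adjusted p = 0.00761). Cox17, the copper chaperone upstream of it, was at 85.5 ± 5.04 FPKM in WT and 101 ± 7.29 FPKM in KO (log2 difference 0.23, adjusted p = 0.0402). Coa7 (0.40, adjusted p = 0.0308) and Atpaf1, a chaperone for the beta subunit of ATP synthase (0.32, adjusted p = 0.0264), were also higher. Only Cox11 kept its call in all 10 single omissions: Cox17 lost it without any library but WT 3 and KO 1 (adjusted p of up to 0.0895), Coa7 without WT 1, WT 4, WT 5, KO 4 or KO 5 (up to 0.0724), and Atpaf1 without WT 1, WT 5, KO 2, KO 4 or KO 5 (up to 0.0647). Hccs, which attaches haem to cytochrome c, had a log2 difference of 0.28 that did not pass (adjusted p = 0.133).

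Among 13 regulators of respiratory genes, 2 were higher (15.4%, against 3.98 percent of all genes, so a count that rests on few genes) and 0 lower by limma (3 higher and 0 lower at an unadjusted p under 0.05). Esrra, the nuclear receptor ERR alpha, read 11.1, 13.3, 11.4, 10.8 and 12.3 FPKM in WT and 14.1, 14.9, 16.2, 16.8 and 14.0 FPKM in KO. The groups were separate (log2 difference 0.35, SE 0.08, adjusted p = 0.0167). Gabpb1, the partner of GABPA in its DNA-binding complex, was at 5.34 ± 0.754 FPKM in WT and 7.08 ± 0.669 FPKM in KO (0.38, adjusted p = 0.0361), a call lost without WT 1, WT 4, WT 5 or any of KO 2 to KO 5 (up to 0.0819). Ppargc1a, the coactivator PGC-1 alpha, read 3.58, 7.59, 11.6, 3.36 and 2.46 FPKM in WT and 4.82, 11.3, 5.45, 14.3 and 12.6 FPKM in KO. Its spread within each genotype was wide, and the log2 difference of 0.80 (SE 0.43) did not pass (adjusted p = 0.286). Nrf1 (0.08, adjusted p = 0.711), Gabpa (0.02, adjusted p = 0.852), Yy1 (0.05, adjusted p = 0.711) and Tfam (-0.00, adjusted p = 0.992) were not called, and the value of Tfam was slightly positive under 3 other scalings.

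A list of 4 genes held carriers that exchange substrates of ATP synthase, with Ucp2 added. By limma, 2 of these carriers were higher and Ucp2 was lower, against 3.98 and 4.56 percent of all genes tested. A further adenine nucleotide carrier, with a mean of 2.74 FPKM, was not called. Slc25a3, the phosphate carrier, read 242 to 255 FPKM in WT and 273 to 316 FPKM in KO (log2 difference 0.25, adjusted p = 0.0111). Slc25a5, an adenine nucleotide carrier, was at 324 ± 16.7 FPKM in WT and 370.4 ± 6.48 FPKM in KO (0.19, adjusted p = 0.0265). Ucp2, an uncoupling protein homologue that liver macrophages also express, was lower (-0.42, adjusted p = 0.0417). Its level was 44.1 ± 3.52 FPKM in WT and 33.2 ± 5.97 FPKM in KO. Of the 8 Kupffer cell markers, 3 were lower and 5 were not called. The part of cell content in the value of Ucp2 was not tested. Leaving out single libraries ended the calls of Slc25a5 (WT 1, WT 4, WT 5, KO 2 to KO 5, adjusted p of up to 0.0651) and Ucp2 (WT 1, WT 2, WT 4, WT 5, KO 1, KO 2, KO 5, up to 0.0945).

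Coenzyme Q links complex II to complex III. Of 10 genes of its synthesis, 1 was higher and 2 were lower by limma, against 3.98 and 4.56 percent of all genes tested. At an unadjusted p under 0.05, 2 were higher and 4 lower, so these counts rest on few genes. Coq7, a hydroxylase of the pathway, read 12.1, 17.2, 19.1, 15.2 and 17.2 FPKM in WT and 25.5, 25.7, 30.3, 28.5 and 28.7 FPKM in KO. The groups were well apart (log2 difference 0.77, SE 0.11, adjusted p = 0.00251). Coq5, a methyltransferase of the pathway, was lower, at 13.4 ± 0.728 FPKM in WT and 10.7 ± 0.749 FPKM in KO (-0.32, adjusted p = 0.0131). Coq8a, a kinase-like regulator listed as Adck3, was also lower, at 89.2 ± 9.02 FPKM in WT and 65.2 ± 8.22 FPKM in KO (-0.45, adjusted p = 0.0156).

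**Figure D5:**
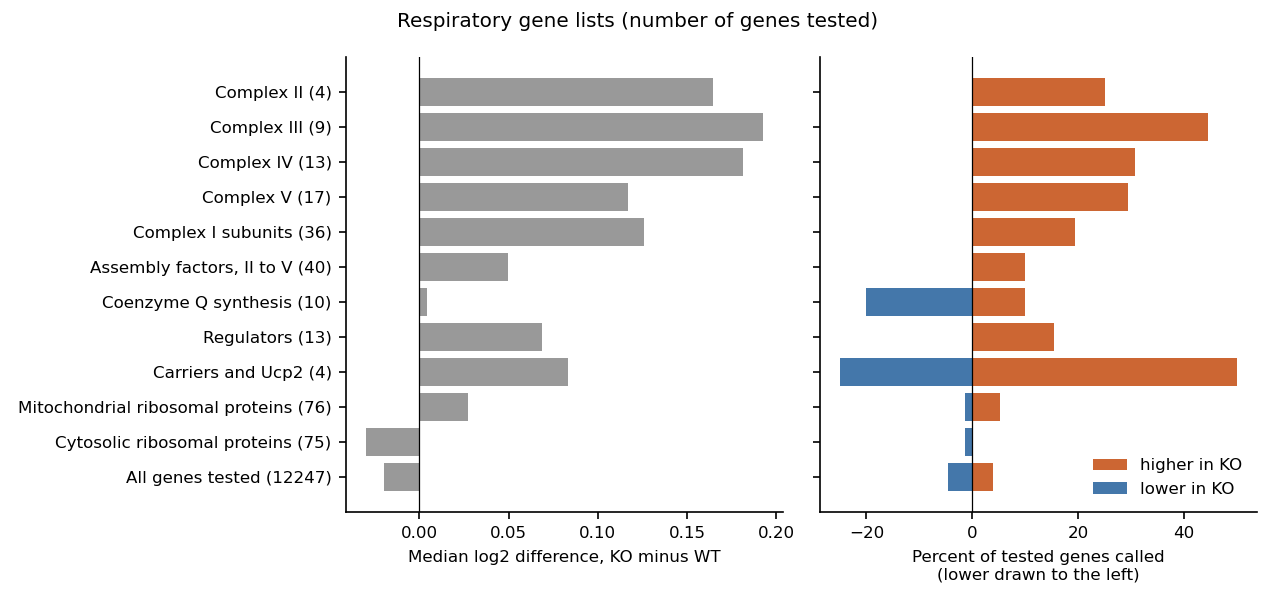
Median log2 difference (left) and percent of tested genes called in each direction (right) for the complexes, related gene lists and all genes tested, with the number of tested genes in brackets. Complexes II to V have medians of 0.12 to 0.19, complex I 0.13, assembly factors 0.05 and all genes -0.02.

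Other gene groups were counted for comparison, among them short and abundant transcripts. Of 75 tested cytosolic ribosomal protein genes, 0 were higher and 1 was lower by limma (1 higher and 5 lower at an unadjusted p under 0.05), with a median log2 difference of -0.03. Of 76 mitochondrial ribosomal protein genes, 4 were higher (5.26%) and 1 was lower, with a median of 0.03. Over all genes tested, 3.98 percent were higher and 4.56 percent lower. Among all tested genes with a coding length of up to 450 bases the median was 0.01 and 47 of 810 were higher (5.80%). Limited to a mean of at least 50 FPKM, these short genes had a median of 0.003 and 17 of 191 were higher (8.90%). Members of up to 450 bases had a median of 0.17 with 8 of 26 higher, and longer members a median of 0.14 with 7 of 18 higher.

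Neighbouring genes were checked because 13 of the 49 members share exonic bases with another annotated gene and 14 have a protein-coding gene that starts on the other strand within 1000 bases. Of 11 such partners that were tested, limma called 0, against 8.54 percent of all genes tested. An unadjusted p under 0.05 was found in 1 of them, against 3006 of all 12247 genes. Counts this small do not set the partners apart from all genes.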

How the data were processed

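Poly-A RNA from liver of Etnppl WT and KO female mice was sequenced in 5 samples per genotype, per the labels. The authors deposited FPKM values, 1 per gene and library. The submitters' processing notes name STAR, RSEM, R 4.0.2, DESeq, DESeq2 and mm10 with no role attached. Which annotation and strand setting were used is not given in the sources used here, so overlapping genes can share reads. Such values are shares of a library rather than amounts.

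The 12247 genes averaging 0.5 FPKM or more were tested as log2(FPKM + 0.5) by limma 3.58.1 (R 4.3.3), with genotype alone in the model and a trended, robust eBayes step. Tests were two-sided, and calls needed a p under 0.05 after Benjamini-Hochberg adjustment over those genes. The pseudocount understates changes of low genes. Adjusted p-values are from this fit. Single values were also compared by exact permutation of the 252 arrangements, two-sided. In simulated data, with changed genes picked from all tested genes, the fit recovered 10.9% of those changed by a log2 of 0.25. It recovered 54% at 0.5 and 87% at 1, and 5.49% of calls were false. The median over tested members was 0.16, so a member that was not called may still differ. Total reads were not analysed here. Relative depth came from 164 low genes, 99.1% of whose values were whole multiples of the value of 1 fragment, within 0.15 of it.

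The members and lists were chosen with earlier results of these data known, so list counts and medians are descriptions. By rule, all members could be named, with Etnppl, the called genes of the pathway lists and 6 regulators; the complex I genes are given as counts, and Usmg5, Ndufa4, 2010107E04Rik, Hccs and the mitochondrial transcripts were named outside the rule. All 190 list entries matched a gene. Positions and exon overlaps came from GENCODE for GRCm38, the assembly of mm10. Alternatives covered pseudocounts, filters, scalings, eBayes options, library weights, a replicate term and leaving out each library.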

Additional observations from a re-analysis of the deposited data

Results flagged for a closer look

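In 144 groups of 5 libraries, 10 held a library whose gap to its nearest neighbour was a larger part of the range than the 95% critical value of Dixon's test allows. Chance gives about 5% of groups, or 7.2. WT 2 was the library in 5 of the 10, each time above the other WT libraries: Cyc1 at 163 FPKM (others 139 to 142), Uqcrc1 at 188 FPKM (others 162 to 168), Atp5b at 1093 FPKM (others 986 to 1013), Atp5g1 at 329 FPKM (others 274 to 289) and Atp5o at 144 FPKM (others 125 to 129.6). Without WT 2 the number of members higher in KO was 17 in place of 15. Uqcrb in KO 3 was at 337 FPKM (others 289.9 to 299). Atp5l in WT 1 was at 190.5 FPKM (others 210.3 to 214). Outside the members, Usmg5 in WT 3 was at 163 FPKM (others 123 to 132), Cox17 in WT 4 at 76.7 FPKM (others 86.6 to 89.1) and Coq5 in WT 3 at 12.2 FPKM (others 13.5 to 14.0).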

How the results depend on the processing

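No member was lower under any of the 20 alternatives, and the median of each complex moved by less than the spread between replicates. Without a filter, all genes higher and lower numbered 294 and 370 (488 and 558 in the reported fit), complex II had 0 and complex V 3 members higher. Complex II had 2 under quantile normalization and 2 under library weights. Correlations of same-numbered samples ran from -0.207 to 0.208, and those of other WT and KO pairs from -0.179 to 0.25. These do not settle whether replicate numbers pair the samples, and the labels do not say. With the replicate block the counts were 230 and 321 genes, 8 members, and 0, 2, 3 and 2 members of complexes II, III, IV and V. Leaving out 1 library gave 258 to 454 genes higher, 316 to 541 lower, 8 to 17 members, 0 to 2 in complex II, 3 to 5 in III, 2 to 4 in IV and 2 to 5 in V. Of the 15 called members, 8 kept the call in every omission, and 7 of these (Cyc1, Uqcrb, Cycs, Cox7a2, Cox7b, Atp5g3 and Atp5f1) under every alternative. Uqcrfs1 lost it with the block (adjusted p = 0.0773). Sdhb, Uqcr10 and Usmg5 gained it under quantile normalization and library weights, Uqcr10 also under median-of-ratios scaling and Usmg5 with the block, Cox6a1 under quantile normalization, and Atp5a1 with the 5 FPKM filter, median-of-ratios scaling and library weights. Over the 68 named genes with Etnppl left out, 1181 of 1338 values kept direction and call, 112 lost a call, 19 gained one and 26 changed sign. The sign changes were in uncalled genes near 0. Under median-of-ratios, upper-quartile, quantile and library-weight settings, Atp5s was 0.0048, 0.0042, 0.0138 and 0.0183, and Tfam 0.0134, 0.0129, 0.0296 and 0.0175. Under quantile normalization mt-Cytb was -0.107 and mt-Co1 0.0304 (0.235 as reported). Over the omissions Atp5s ran from -0.0948 to 0.0451, Tfam from -0.042 to 0.0556, Uqcrq from -0.0353 to 0.0391, and mt-Cytb from -0.0469 to 0.0809. The cause of these changes was not tested. Depth is known only relative between libraries, which limits what can be said of the lowest isoforms.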
